A study of Homo sapiens with 2 samples.

Results

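The 55 genes described here encode the proteins that license replication origins, unwind DNA, copy both strands and package the new DNA into chromatin. They were chosen by gene name, with earlier results of these data known, and all 55 were found among the 58735 genes of the deposited count table. RNA-seq was done on SUIT-2, a human pancreatic adenocarcinoma cell line, in a derivative selected for high metastatic potential. The series compared untreated cells (treatment label NC) with cells given dihydroartemisinin (DHA), the active metabolite of the antimalarial artemisinins. Each group was 1 library, with 15452609 counted reads untreated and 14521101 with DHA. No difference here therefore has a replicate check or a test, and higher and lower refer to this pair of libraries alone. The labels state neither the DHA dose, nor the exposure time, nor a vehicle for the untreated cells. Both groups come from 1 cell line and share every other label.

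The labelled cell type was checked on markers. Of 7 epithelial and ductal genes, KRT7 fell below 50 reads in both libraries, with 49 reads untreated and 26 with DHA. The other 6 had at least 50 reads in 1 library or both. They ran from MUC1, with 147 reads untreated and 29 with DHA, to KRT8, with 29850 and 11840. With DHA all 6 were at least 2-fold lower, against 10.3% of all genes with enough reads, from KRT18 with 12313 and 4985 reads (2.34-fold) to CDH1 with 933 and 23 (37.6-fold). EPCAM was 5.30-fold lower. The part of this difference in the replication results was not tested. The leukocyte genes PTPRC, CD3E and CD68 had 0 reads in both libraries. Of 6 retina genes, listed because the protocol text names that tissue, only PDE6A had any reads, 6 and 5. Of the fibroblast and endothelial markers, COL1A1 had 83 and 11 reads and PECAM1 280 and 54, while COL3A1, DCN and CDH5 had 0 in both libraries and VWF 1 and 3.

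Replication starts in G1 phase, when the origin recognition complex (ORC), CDC6 and CDT1 load the ring of MCM2 to MCM7 onto DNA. In S phase CDC45 and the GINS complex join that ring to form the active helicase, called CMG. Polymerase alpha with primase starts each strand, polymerase epsilon extends the leading strand and polymerase delta the lagging strand, held by the PCNA clamp that replication factor C (RFC) loads. Many of these genes are transcribed in late G1 and S phase under the E2F transcription factors. The RNA level of such genes in a culture can depend on how many cells are cycling, which was not tested here. In these bulk libraries fewer cells in S phase and less RNA in each cell cannot be told apart.

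Each of the 55 genes reached 50 reads in 1 library or both, the minimum set for a ratio. Their counts ran from 212 to 6899 untreated and from 82 to 2458 with DHA. Together they took 0.517% of the untreated and 0.278% of the DHA reads. A gene was called lower when its scaled ratio was at least 2-fold and a 95% counting interval did not include 1. By this rule of size 19 of the 55 were lower and 0 were higher in the DHA library, against 10.3% and 6.72% of the 12064 genes with enough reads. At 1.5-fold the member counts were 34 lower and 0 higher, against 19.2% and 18.9% of those genes, and at 3-fold 8 and 0, against 4.61% and 1.82%. Log2 ratios were below 0 for 51 of the 55, against 47.8% of all genes with enough reads. The median log2 ratio was -0.75 over the 55 genes and 0.04 over all 12064. Counting intervals lay wholly below 0 for 47 of the genes (35.5% of all genes with enough reads) and wholly above 0 for ORC6 and RFC1 (39.8%). They held 0 for ORC4, ORC5, GINS3, POLE4, RPA2 and WDHD1.

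**Figure D1:**
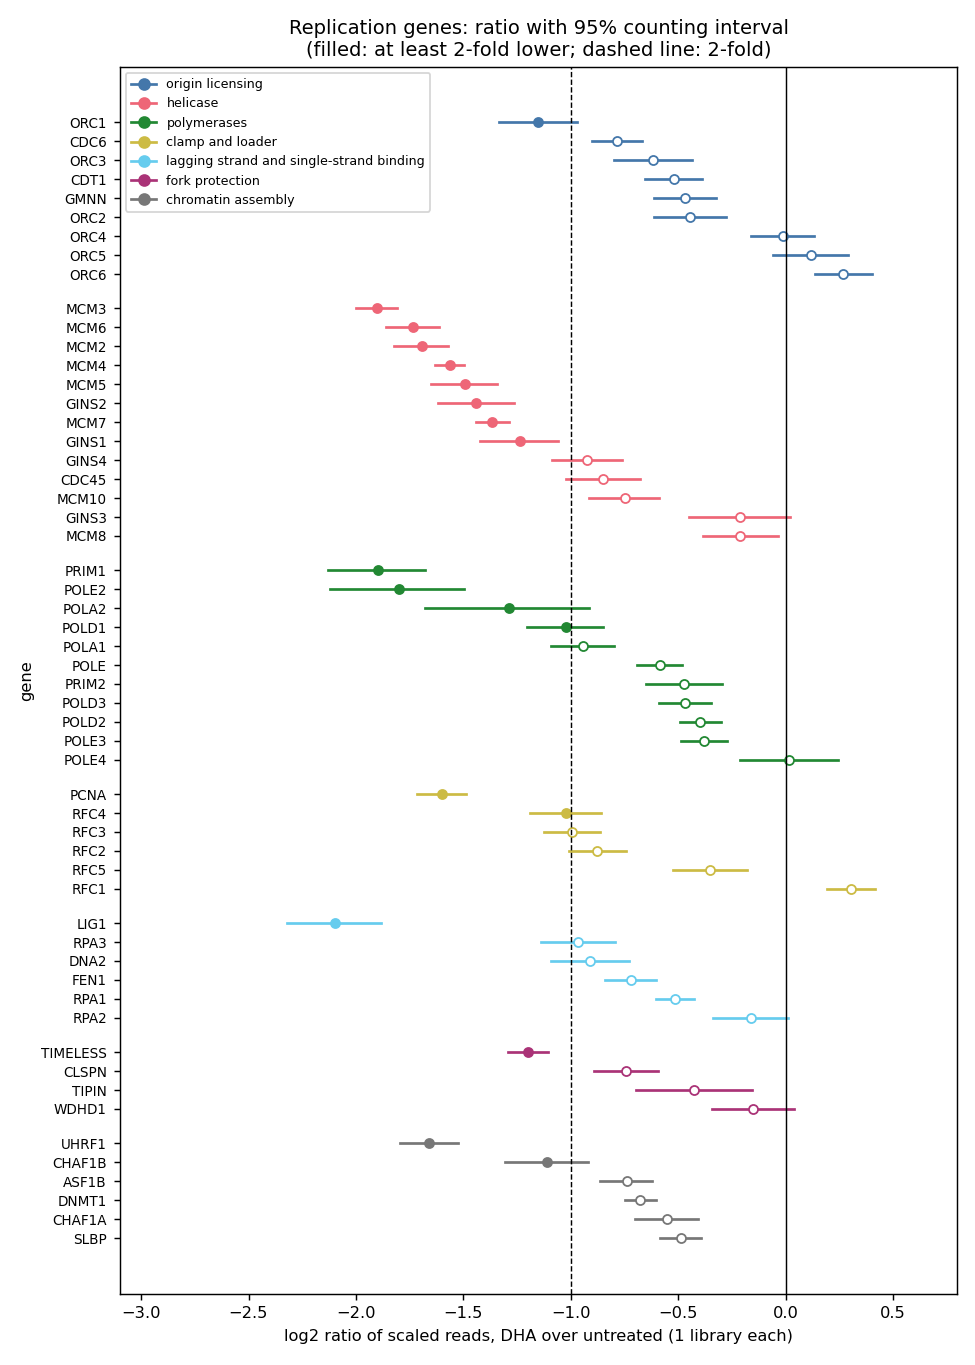
The horizontal axis is the log2 ratio of scaled reads in the DHA library over the untreated library, and each row is 1 gene, coloured by role, with its 95% counting interval as a line. The 19 filled points are at least 2-fold lower, all 6 of MCM2 to MCM7 lie left of the dashed 2-fold line, and only ORC6 and RFC1 have intervals wholly right of 0.

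**Figure D2:**
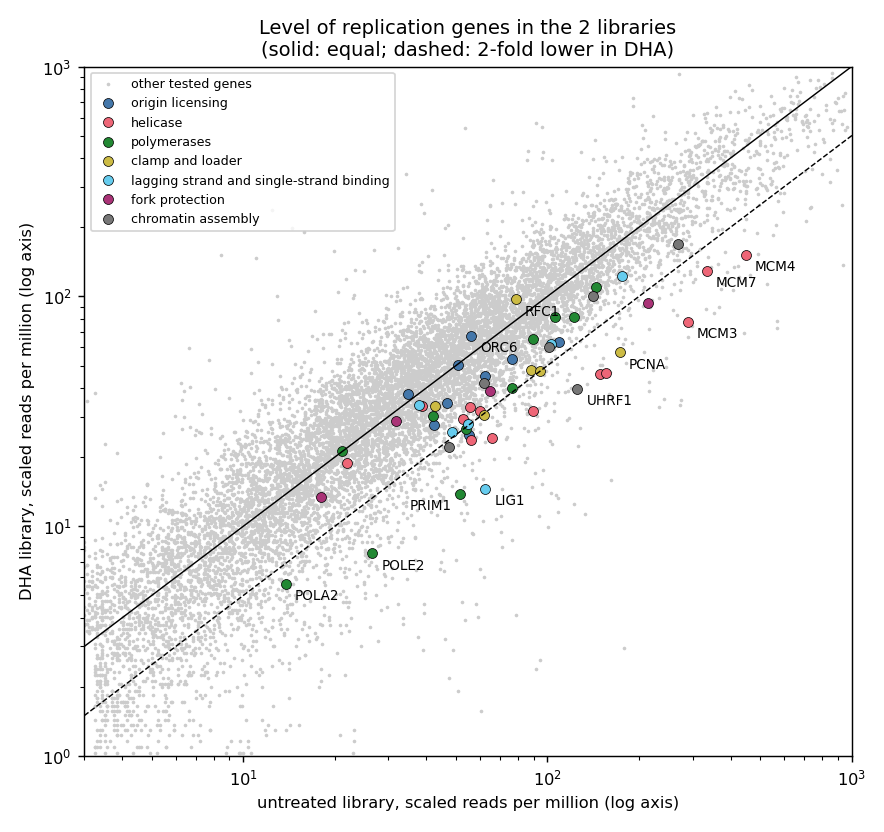
Scaled counts per library size (CPM) in the untreated (horizontal) and DHA library (vertical), on log axes that cover the range of the coloured replication genes, with the other tested genes in grey. The points farthest right, MCM4, MCM7 and MCM3, lie below the dashed line of a 2-fold lower level, whereas RFC1 and ORC6 lie above the solid line of equal levels.

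Counts by role are given here against the 10.3% of all genes with enough reads that were at least 2-fold lower. At least 2-fold lower were 8 of 13 helicase genes, 4 of 11 polymerase genes, 2 of 6 clamp and loader genes, 1 of 6 lagging strand and single-strand binding genes, 1 of 4 fork protection genes, 2 of 6 chromatin assembly genes and 1 of 9 licensing genes. The licensing count is near the share over all genes, and each count of 1 rests on a single gene. The median log2 ratio was lowest for the helicase genes, -1.37, followed by the clamp and loader with -0.93, lagging strand genes with -0.81, chromatin assembly with -0.71, polymerases with -0.59, fork protection with -0.58 and licensing with -0.47. Members close to the 2-fold threshold were RFC4 (-1.02) and POLD1 (-1.02) just inside and RFC3 (-0.99) and RPA3 (-0.97) just outside.

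Among the licensing genes only ORC1 was at least 2-fold lower. ORC1 is the ORC subunit whose level changes through the cell cycle, and it went from 852 reads untreated to 363 with DHA, 2.22-fold lower (95% counting interval 1.96 to 2.52). The subunits ORC2 and ORC3 had 720 and 653 reads untreated against 501 and 403 with DHA, log2 ratios of -0.44 and -0.62. ORC4 had 784 and 735 reads and ORC5 534 and 548, so that their log2 ratios were -0.01 and 0.12. ORC6, which completes the complex, had 863 and 985 reads and was 1.21-fold higher (log2 ratio 0.27, 0.14 to 0.40). On the RPKM scale, that is scaled reads per kilobase of exon and library size, ORC1 had the highest level of the 6 subunits in untreated cells, 17.5, and the third highest with DHA, 7.89, whereas ORC6 went from 13.0 to 15.7. The gap between the log2 ratios of ORC6 and ORC1 was 1.42 (counting interval 1.20 to 1.64). Here and in the other complexes the gap is that between the highest and the lowest subunit, a pair chosen after its values were seen.

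The loading factors lay between these. CDC6, the ATPase that joins ORC to load the helicase, had 1682 and 925 reads, 1.72-fold lower (1.59 to 1.87). CDT1, which brings the MCM ring to the origin, had 1175 and 775 reads, with a log2 ratio of -0.52. Its inhibitor geminin, encoded by GMNN, had 962 and 659 reads and a log2 ratio of -0.47. Neither the factor nor its inhibitor passed the 2-fold rule, and their counting intervals overlap (1.31- to 1.57-fold lower for CDT1, 1.25 to 1.53 for GMNN).

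All 6 genes of the MCM2 to MCM7 ring were at least 2-fold lower. MCM3 (chromosome 6, 52264009 to 52284881, minus strand, GRCh38) had 4452 and 1126 reads, 3.74-fold lower, with a lower interval bound of 3.51. MCM6 had 2390 and 679 reads, 3.33-fold lower (3.06 to 3.63). MCM2 had 2298 and 672 reads, 3.24-fold lower (2.97 to 3.53), with 23.6% of its exon length under an antisense gene that had 0 reads in both libraries. The ring subunits are needed in equal numbers in the protein complex. MCM4 had the most untreated reads of the 55 genes, 6899, and 2209 with DHA, 2.96-fold lower (2.82 to 3.10). MCM5 had 1375 and 462 reads, 2.82-fold lower (2.53 to 3.14). MCM7 had 5136 and 1887 reads and the smallest change of the 6, 2.58-fold lower (2.44 to 2.72). The gap in log2 ratio between MCM7 and MCM3 was 0.54 (0.42 to 0.66). It was close to the gaps between CHAF1A and CHAF1B, 0.56 (0.32 to 0.79), and within polymerase delta, 0.63 (0.43 to 0.82). Levels per kilobase within the ring differed 6.51-fold untreated and 6.83-fold with DHA. Summed over the 6 genes, the level was 299.9 RPKM untreated and 97.5 RPKM with DHA.

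The other helicase genes were less uniform. MCM8 is an MCM relative that is not part of the replicative ring and acts in recombination, and it had 595 and 487 reads, a log2 ratio of -0.21. MCM10, which helps activate the helicase, had 856 and 482 reads, with a log2 ratio of -0.75. CDC45 had 811 and 426 reads, 1.80-fold lower (1.60 to 2.03). Of the 4 GINS genes, 2 passed 2-fold. GINS2 had 1009 and 352 reads, 2.71-fold lower (2.40 to 3.07), and GINS1 863 and 346, 2.36-fold lower (2.08 to 2.68). GINS4 had 924 and 461 reads, with a log2 ratio of -0.92. GINS3 had the fewest reads of the 4, 338 and 276, and its interval from 0.99- to 1.36-fold lower included no change. The GINS subunits form a complex of 1 copy each, and their levels per kilobase spanned 4.67-fold untreated and 1.99-fold with DHA.

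MCM6 and MCM8 belong to 1 family and differed in ratio, and the 250 bases before their RefSeq start sites (GRCh38.p14) are printed here because they also differ in matches to the E2F consensus. Capitals mark the E2F consensus (TTTCCCGC, TTTCGCGC, TTTGCCGC or TTTGGCGC, either strand) and the CCAAT box (either strand), which binds NF-Y. The MCM6 stretch holds 2 copies of a run in which an E2F match on each strand overlaps the other, and 2 CCAAT boxes. The MCM8 stretch holds 0 E2F matches and 1 CCAAT box, and the only E2F match of MCM8 lies after its start. This pair is not typical, since MCM6 has 4 E2F matches, the most of the members with a promoter window. A link between matches and ratios was not tested.
MCM6 (chr2:135876444-135876693, minus strand): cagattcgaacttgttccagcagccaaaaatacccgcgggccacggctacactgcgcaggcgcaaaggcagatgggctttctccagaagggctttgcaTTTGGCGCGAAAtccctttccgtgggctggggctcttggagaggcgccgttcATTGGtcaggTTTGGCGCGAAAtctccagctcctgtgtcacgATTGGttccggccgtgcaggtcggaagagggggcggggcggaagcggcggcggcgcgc
MCM8 (chr20:5950402-5950651, plus strand): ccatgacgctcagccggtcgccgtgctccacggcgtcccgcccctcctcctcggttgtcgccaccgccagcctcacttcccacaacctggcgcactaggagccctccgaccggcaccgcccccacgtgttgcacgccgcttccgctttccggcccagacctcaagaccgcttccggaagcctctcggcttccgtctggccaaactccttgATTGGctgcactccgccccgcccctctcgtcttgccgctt

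In each DNA polymerase complex some genes were at least 2-fold lower and others were not. Polymerase alpha with primase has 4 subunits, of which POLA2 and PRIM1 were at least 2-fold lower. PRIM1, the catalytic primase subunit (chromosome 12, 56731596 to 56752373, minus strand), had 797 and 202 reads, 3.73-fold lower (3.20 to 4.38). Its partner PRIM2 had 648 and 442 reads, a log2 ratio of -0.47, and the gap of 1.43 between the partners had a counting interval of 1.14 to 1.71. POLA1, the catalytic polymerase subunit, had 1179 and 580 reads, a log2 ratio of -0.94. POLA2 had the fewest reads of all members, 212 and 82, and was 2.44-fold lower (1.89 to 3.20). Its value is uncertain, since 35.1% of its exon length is shared with the gene AP000944.2 on the same strand, which had 15 and 36 reads. PRIM1 shares 16.2% of its exon length on the same strand, and the largest partner, AC117378.1, had 0 reads in both libraries. Per kilobase, PRIM1 was the highest of the 4 in untreated cells, 21.2, and below PRIM2 and POLA1 in the DHA library, 5.69.

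In polymerase delta the catalytic subunit was the 1 of 3 genes past 2-fold. That gene, POLD1, had 829 and 386 reads, 2.03-fold lower (1.80 to 2.30). POLD2 had 2220 and 1597 reads and POLD3 1385 and 948, log2 ratios of -0.40 and -0.47. In polymerase epsilon the accessory subunit POLE2 (chromosome 14, 49643555 to 49688422, minus strand) had 409 and 111 reads and was 3.48-fold lower (2.82 to 4.34). The catalytic subunit POLE had 1889 and 1192 reads, a log2 ratio of -0.59 (-0.69 to -0.48). The histone-fold subunits POLE3 and POLE4 had 1627 and 324 reads untreated against 1184 and 310 with DHA, log2 ratios of -0.38 and 0.02. POLE2 and POLE4 were the pair farthest apart in any complex examined, 1.81 in log2 ratio (1.44 to 2.19). Levels per kilobase within polymerase epsilon spanned 5.49-fold untreated and 12.1-fold with DHA.

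**Figure D3:**
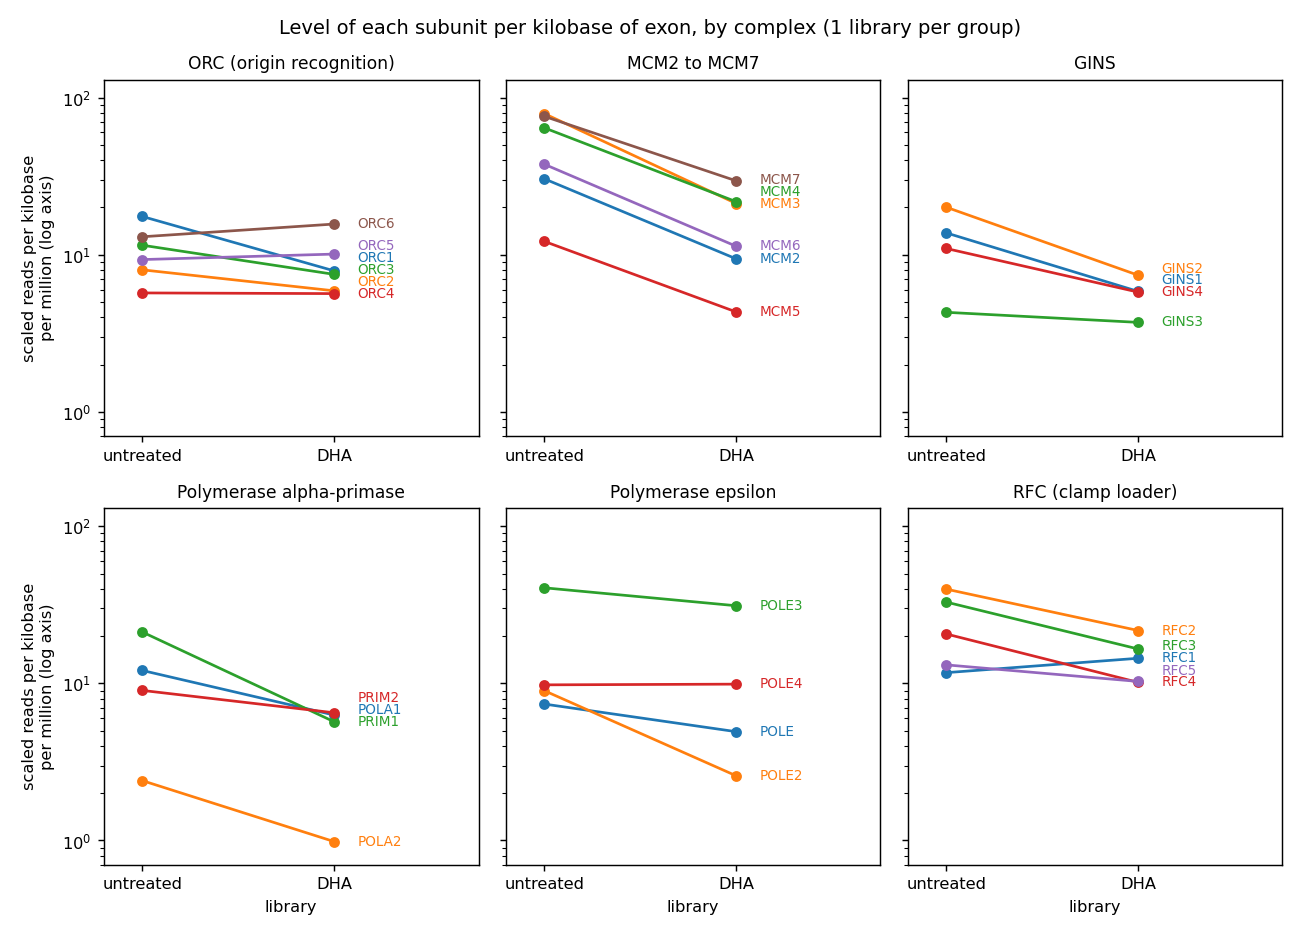
Each panel shows the subunits of 1 complex, with their level in RPKM (log axis) in the untreated and the DHA library joined by a line. The 6 MCM lines run close to parallel, with MCM3 passing below MCM7 and MCM4. Among the lines that cross in other panels are ORC1 and ORC6, PRIM1 and PRIM2, POLE2 and POLE, and RFC1 with both RFC4 and RFC5.

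PCNA, the sliding clamp (chromosome 20, 5114953 to 5126626, minus strand), had 2664 and 832 reads, 3.03-fold lower (2.80 to 3.28). It had the highest level per kilobase of all 55 genes in untreated cells, 117.6, and the second highest in the DHA library, 38.8, after SLBP. The clamp loader did not follow it as a whole. RFC1, its large subunit (chromosome 4, 39287456 to 39366375, minus strand), had 1210 and 1415 reads and was 1.23-fold higher (1.14 to 1.33). The 4 small subunits are shared with other clamp loaders, and all had ratios below 0. RFC4 had 952 and 443 reads, 2.03-fold lower (1.82 to 2.28), and RFC3 1457 and 693, 1.99-fold lower (1.82 to 2.18). RFC2 had 1355 and 699 reads, a log2 ratio of -0.88. RFC5 had 656 and 487 reads, a log2 ratio of -0.35, and 10.6% of its exon length lies under WSB2 on the other strand, which had 2539 and 2414 reads. Between RFC1 and RFC4 the gap in log2 ratio was 1.33 (1.13 to 1.53).

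LIG1, the ligase that joins Okazaki fragments (chromosome 19, 48115445 to 48170603, minus strand), had the lowest ratio of the 55 genes. It had 961 and 212 reads, 4.28-fold lower, a log2 ratio of -2.10 (-2.32 to -1.89). The flap nuclease gene FEN1 acts just before it on the same fragments and had 1579 and 907 reads, 1.65-fold lower (1.52 to 1.79). DNA2, a nuclease and helicase for long flaps, had 746 and 376 reads, a log2 ratio of -0.91. RPA, the trimer that coats single-stranded DNA, had 0 of 3 genes past 2-fold. RPA1 had 2709 and 1796 reads and RPA3 842 and 408, log2 ratios of -0.51 and -0.97. RPA2 had 583 and 493 reads, and its interval from 0.99- to 1.26-fold lower included no change. The ends of the RPA trimer were 0.80 apart (0.56 to 1.05).

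Of the fork protection genes TIMELESS alone passed 2-fold. It had 3299 and 1360 reads, 2.30-fold lower (2.16 to 2.45), while its binding partner TIPIN had 278 and 196 reads, 1.34-fold lower (1.11 to 1.62). For TIPIN 21.0% of the exon length is shared with a pseudogene, RPL9P25, that had 0 reads in both libraries. CLSPN encodes claspin, which links the fork to checkpoint signalling, and had 998 and 565 reads, a log2 ratio of -0.74. WDHD1, which tethers polymerase alpha to the helicase, had 491 and 419 reads, a log2 ratio of -0.15.

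Among the chromatin genes UHRF1 and CHAF1B were at least 2-fold lower. UHRF1 recognises half-methylated DNA behind the fork and recruits the methyltransferase DNMT1. UHRF1 (chromosome 19, 4903080 to 4962154, plus strand) had 1931 and 579 reads, 3.16-fold lower (2.88 to 3.47), against 4147 and 2458 for DNMT1, 1.60-fold lower (1.52 to 1.68). These intervals do not overlap. The subunits of the histone chaperone CAF-1 also differed, CHAF1B with 732 and 321 reads, 2.16-fold lower (1.89 to 2.47), and CHAF1A with 949 and 612, 1.47-fold lower (1.32 to 1.63). ASF1B, which hands histones to CAF-1, had 1555 and 881 reads, a log2 ratio of -0.74. SLBP, which binds the stem-loop of histone messenger RNAs, had 2177 and 1469 reads, a log2 ratio of -0.49.

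Promoter windows from 250 bases before to 50 after a RefSeq start (GRCh38.p14) were matched by symbol for 48 of the 55 genes, taking the first window listed per gene. The other members were MCM4, MCM5, GINS4, POLD3, RPA2, RPA3 and DNA2. The E2F consensus was present in 22 of these 48 (45.8%), against 3.33% of all 27305 windows and 5.58% of the 9206 windows of genes with enough reads. Of the 22 members with a match 11 were at least 2-fold lower, with a median log2 ratio of -1.12, and of the 26 without a match 6 were, with a median of -0.50. The groups overlap, from -2.10 to 0.02 with a match and from -1.90 to 0.30 without. Outside the 55 genes, 492 had a match, of which 7.32% were at least 2-fold lower and 3.25% higher, with a median of 0.03. The 8666 without a match had 9.23% lower and 6.49% higher, with a median of 0.05, so that both shares were smaller with a match and the medians were close. PRIM1, TIMELESS, ORC1, CHAF1B, RFC4 and POLD1 were at least 2-fold lower with no E2F match in this window. Counting every listed window of a gene, 24 members held a match (3.99% of all genes), with 11 lower among them and 6 among the other 24. The CCAAT box was present in 28 of the 48 (58.3%, against 35.7% of all windows and 36.9% of those of genes with enough reads), and the members with and without it had medians of -0.75 and -0.70. The sequence TTTGAA, known from promoters active later in the cycle as the cell cycle homology region, was present on either strand in the first window of ASF1B alone, 2.08% of the members against 15.4% of all windows and 9.35% of those of genes with enough reads. Over every listed window 2 members held it. A match describes these letters only.

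Windows of 30 bases around the E2F match nearest the start are printed for the 10 other lower members that hold one, in order of ratio, with the match in capitals. They show that the matches of the lowest genes vary in spelling, strand and distance from the start.
LIG1 (chr19:48170440-48170469, minus strand): acttcacccctTTTCCCGCcctcctcccat
MCM3 (chr6:52284728-52284757, minus strand): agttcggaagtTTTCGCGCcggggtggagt
POLE2 (chr14:49688201-49688230, minus strand): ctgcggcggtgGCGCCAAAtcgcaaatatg
MCM2 (chr3:127598402-127598431, plus strand): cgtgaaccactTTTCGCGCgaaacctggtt
UHRF1 (chr19:4909476-4909505, plus strand): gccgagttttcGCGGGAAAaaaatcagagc
PCNA (chr20:5126663-5126692, minus strand): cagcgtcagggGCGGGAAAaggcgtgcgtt
GINS2 (chr16:85688967-85688996, minus strand): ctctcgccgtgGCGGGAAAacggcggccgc
MCM7 (chr7:100101388-100101417, minus strand): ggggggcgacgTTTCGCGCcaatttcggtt
POLA2 (chr11:65261898-65261927, plus strand): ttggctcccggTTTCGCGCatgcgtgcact
GINS1 (chr20:25407667-25407696, plus strand): agctttgttcgGCGCCAAAgcgcggagcgg

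For comparison, the windows of the 3 members with a match and the smallest differences between the libraries are given in the same form. Read in the direction of transcription, POLE4 and GINS3 have the spelling that PCNA, GINS2 and UHRF1 have above, and MCM8 shares its spelling with POLE2 and GINS1.
GINS3 (chr16:58392455-58392484, plus strand): cgtccccgggcGCGGGAAAcgagtttcaat
MCM8 (chr20:5950667-5950696, plus strand): ggatcactgaaGCGCCAAAaaagaatttag
POLE4 (chr2:74958601-74958630, plus strand): ctccagcccgcGCGGGAAAgggcctgcgcc

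**Figure D4:**
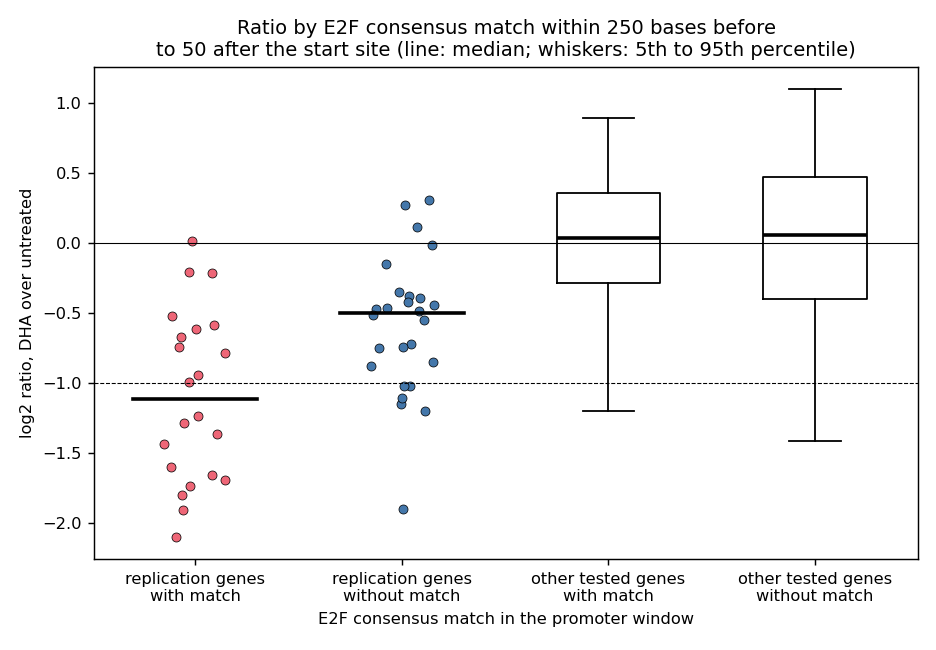
Log2 ratios (vertical axis) of replication genes with and without an E2F consensus match in the promoter window (points, with the median as a bar), beside boxes for the other genes with enough reads (median, quartiles, and whiskers from the 5th to the 95th percentile). The medians of the replication genes are -1.12 and -0.50, and those of the other genes 0.03 and 0.05.

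Genes that work beside the 55 were described from 6 further lists. Their counts are given against the 10.3% of all genes with enough reads that were at least 2-fold lower and the 6.72% higher. A count of 1 rests on a single gene. Of 12 origin firing factors, 0 were at least 2-fold lower and 0 higher, with a median log2 ratio of -0.28. TICRR, which brings CDC45 to the ring, had 497 and 241 reads (log2 ratio -0.96), RECQL4 1410 and 771 (-0.79), the kinase gene CDC7 648 and 357 (-0.78), and LRWD1, which stabilises ORC on chromatin, 478 and 810 (0.84). Of 13 other fork factors, 11 had enough reads and PCLAF was lower, with 773 and 229 reads (3.19-fold, 2.75 to 3.72). PCLAF binds PCNA. The unloader gene ATAD5 had a log2 ratio of -0.92, CHTF8, of an alternative clamp loader, 0.60, and RNASEH2C, of a nuclease that removes ribonucleotides from DNA, -0.56. The list median was -0.27.

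Of 9 other chromatin factors, 3 were lower, against 10.3% of all genes with enough reads, with a list median of -0.47. They were HELLS, a remodeller tied to DNA methylation, with 1324 and 380 reads (3.30-fold lower, 2.94 to 3.71), RBBP4, the third CAF-1 subunit, with 4526 and 1824 (2.35-fold, 2.22 to 2.48), and TONSL, which binds new histones, with 859 and 374 (2.17-fold, 1.92 to 2.46). SSRP1, of the histone chaperone FACT, had a log2 ratio of -0.70. The 12 specialised DNA polymerase genes, which act in repair, damage bypass and mitochondria, had a median of 0.15. Of them 0 were lower and 1 was higher, against 10.3% and 6.72% of all genes with enough reads. That 1 was POLG, of the mitochondrial polymerase, with 377 and 958 reads (2.68-fold higher, 2.38 to 3.03). REV3L, PRIMPOL and POLL had log2 ratios of -0.79, -0.74 and 0.58. The catalytic genes of the 3 replicative polymerases, POLA1, POLD1 and POLE, had -0.94, -1.02 and -0.59.

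Of 19 regulators of the step from G1 to S phase, 3 were lower and 0 higher, against 10.3% and 6.72% of all genes with enough reads. Their median log2 ratio was -0.40. E2F2, an activating E2F factor, had 321 and 54 reads (5.59-fold lower, 4.21 to 7.66), E2F8, a repressing one, 688 and 187 (3.48-fold, 2.96 to 4.12), and the cyclin gene CCNE2 219 and 102 (2.03-fold, 1.60 to 2.60). E2F1 had 1913 and 962 reads, a log2 ratio of -0.91. Nucleotide supply was represented by 6 genes, of which 4 were lower, with a list median of -1.25. DUT, which clears dUTP, had 1818 and 430 reads (lower, with an interval of 3.60- to 4.46-fold), TYMS 863 and 336 (2.43-fold) and TK1 2187 and 892 (2.32-fold).

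**Figure D5:**
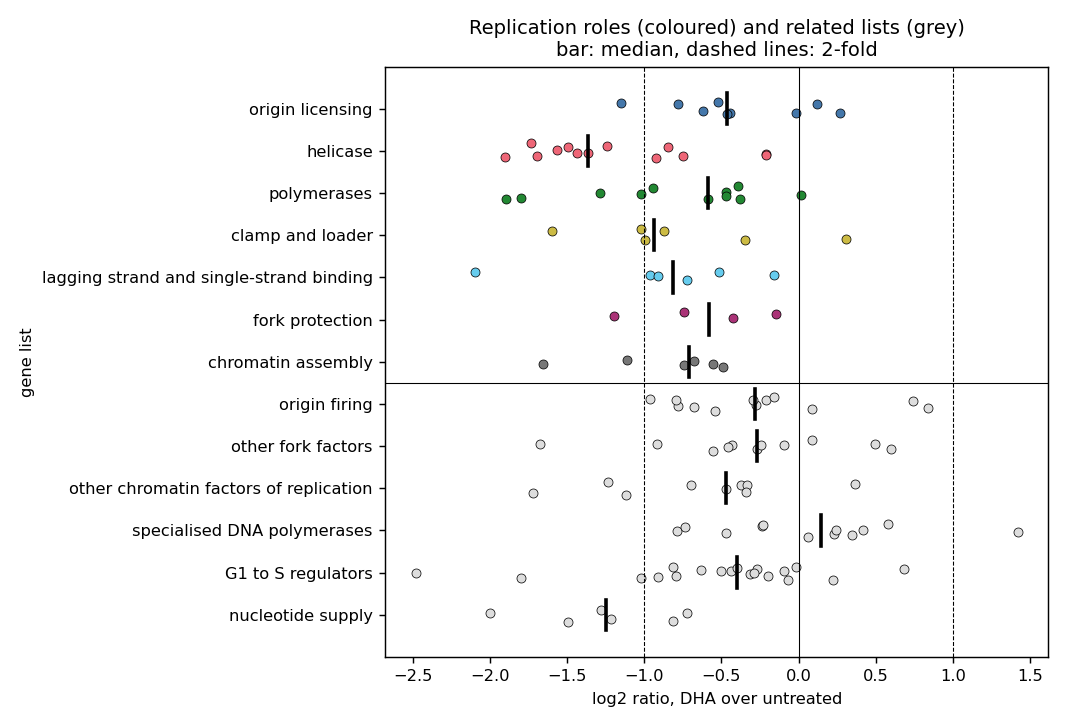
Log2 ratios (horizontal axis) of single genes with enough reads in the 7 roles of the replication genes (coloured) and in the 6 related lists (grey), with the median of each list as a bar and 2-fold as dashed lines. The medians run from -1.37 for the helicase genes to 0.15 for the specialised polymerases.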

How the data were processed

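Per the labels' protocols, RNA was isolated with Trizol and an Illumina kit was used for library construction; the same text names retina as the tissue. The deposited values are raw whole-number read counts per gene, with no normalization, per the file headers, beside gene lengths in bases. The submitters' processing notes list the mouse build mm8, but the deposited gene identifiers are human. Coordinates and exon lengths of all 55 genes equalled GENCODE release 29 on GRCh38. An aligner, a counting tool and its use of strand and multiply mapping reads: not given in the sources used here. All 10 pseudogenes named after members had 0 reads, so the handling of reads shared with them is unknown.

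TMM factors over the whole table scaled the counts (edgeR 4.0.16, R 4.3.3; factors 0.996 and 1.00). Ratios used 0.5 added reads. Counting intervals are exact Clopper-Pearson intervals of the DHA share of a gene's reads (scipy 1.17.1), and gaps between subunits have normal-approximation intervals. They cover counting error only, not variation between cultures. Copied reads are not independent molecules, so the intervals can be too narrow even for counting error. With 1 library per group no test across genes was possible. The rule of size was tried on simulated counts with counting error only. Variation between cultures was not simulated, so that run cannot show how the rule behaves under it. Levels per kilobase (RPKM) are scaled CPM over the deposited length. Genes named from each of the 6 related lists are up to 4 with the largest absolute log2 ratio. The values of 1 gene this rule names are not reported here. The members and lists were chosen with earlier results of these data known. The 6 roles the genes were grouped by left out 4, which form the fork protection role, and RPA was placed with the lagging strand.

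Alternatives were total-read, DESeq2 1.42.0 and upper-quartile scaling, other read minimums, added reads and fold thresholds, protein-coding genes only, a stricter interval, and removal of a trend on gene length (statsmodels 0.14.6).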

Additional observations from a re-analysis of the deposited data

How the results depend on the processing

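The count of 19 members at least 2-fold lower stayed between 18 and 22 under the alternatives that kept the 2-fold threshold, and the count of higher members was 0 under all alternatives. With a 1.5-fold threshold 34 members were lower (19.2% of all genes with enough reads), and with a 3-fold threshold 8 (4.61%). The same count of 19 members stood against 13.6% of all genes with a minimum of 10 reads, 9.17% with no minimum and 7.36% with a minimum of 200 reads. The median log2 ratio of the members ran from -0.81 with upper-quartile scaling to -0.73 with the length trend removed. RFC3 passed 2-fold with DESeq2 size factors (-1.03), upper-quartile scaling (-1.06) and protein-coding genes only (-1.01), RPA3 with the first pair (-1.004 and -1.03) and POLA1 with upper-quartile scaling (-1.01). RFC4 was under 2-fold with the length trend removed (-0.91). Of 330 single-gene values under alternatives, 322 lay within the gene's counting interval. The other 8 came from the length trend, among them PCNA (-1.34) and RPA2, which changed sign (0.03). Within its interval, POLE4 also changed sign, from 0.02 to -0.02 with DESeq2 size factors, -0.05 with upper-quartile scaling and -0.002 with protein-coding genes only. No paired analysis was possible because each group has 1 library. Depth limits single genes, with a median half-width of the interval of 0.15 on the log2 scale over the members.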
